A study of Rattus norvegicus with 16 samples.

Results

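Neuromuscular junctions of eye muscle, the rectus extraocular muscles (EOM), were compared with those of leg muscle, the tibialis anterior (TA), in rat. The comparison used 8 of the 16 arrays of the study, chosen by their titles: 4 arrays labelled EOM synapse and 4 labelled TA synapse, 1 of each from the animals numbered 15, 25, 27 and 29. The other 8 arrays, fibre of the same muscles away from junctions, entered the same model. They served to ask whether a muscle difference at the junction differed from that in fibre. In frozen sections of 10 µm, junctions were found by staining for acetylcholinesterase and cut out by laser, with about 1000 junctions per muscle. Both groups came from the same 4 rats, killed by CO2, with no genotype, agent or strain named in the labels and with age and sex not given in the sources used here. Each captured region holds the underlying muscle fibre as well as the synapse, and the RNA was amplified in successive rounds, with the first product brought to 600 ng, before it reached an Affymetrix rat array.

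At a neuromuscular junction the motor nerve ending releases acetylcholine onto a patch of muscle membrane packed with acetylcholine receptors. Agrin from the nerve acts through Lrp4 and the kinase MuSK to gather the receptors, and the few muscle nuclei beneath the membrane transcribe the receptor genes strongly, through ETS family factors that bind the N-box of their promoters. Extraocular muscles contract faster than limb muscles, keep myosins that limb muscle loses after birth, and are innervated in part by nerve endings of a kind not found in limb muscle.

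Levels below are quantile-normalized log2(intensity + 16). On this scale 4 is the floor, a difference of 1 is about a 2-fold difference in intensity for bright genes, and smaller changes are shown for dim genes. Values per array are given in the order of rats 15, 25, 27 and 29. Differences are EOM junction minus TA junction ± SE, with n = 4 rats, and the adjusted p-values come from limma with Benjamini-Hochberg adjustment over all 10416 genes tested, with 0.05 as the threshold. The muscle difference at junctions minus that in fibre is called the interaction. Some counts are also given at an unadjusted p under 0.05. No share of all genes is given for that cut, so those counts have no background beside them. Levels of different genes cannot be compared, because each probe set has its own response.

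The 4 EOM junction arrays correlated with each other at 0.933 to 0.949 across probe sets, the 4 TA junction arrays at 0.885 to 0.947, and arrays of the 2 muscles at 0.861 to 0.922. The TA junction array of rat 27 stood apart, with the lowest mean correlation with its own group (0.891), the highest median intensity (53.20 against 36.04 to 44.86 in the other 7 junction arrays) and the highest 3' to 5' signal ratio of Gapdh (19.0 against 7.84 to 13.3), a ratio that rises as RNA is shortened. The same ratio of beta-actin did not single it out, at 22.9, with the EOM junction array of rat 15 at 26.9 and the other junction arrays at 5.27 to 21.7. Junctional capture was read from receptor genes. Chrna1, Chrnb1, Chrnd and Chrne were higher at junctions than in fibre in both muscles, whereas Chrng, near the floor at junctions, was not. Of the clustering genes, Rapsn (-0.36 in EOM and -0.26 in TA) and Dok7 (-0.63 and -0.45) were also not higher at junctions than in fibre. Chrne, the adult receptor subunit, was at 11.36 ± 0.14 (SD, n = 4) in EOM junctions and 4.99 ± 0.83 in EOM fibre, and at 10.42 ± 0.36 in TA junctions and 4.39 ± 0.08 in TA fibre.

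Of the 10416 genes, 1712 (16.4%) differed between the junctions of both muscles, 815 (7.82%) higher in EOM and 897 (8.61%) lower. The sign was the same in all 4 rats for 1685 of them. The arrays of the 2 muscles did not overlap for 1471 of the called genes, against 2374 (22.8%) of all genes tested. Neither count is separate support for the calls, which were made on the same arrays. Differences beyond 1 were found for 931 called genes, beyond 2 for 155 and beyond 4 for 22. Over all genes tested the median difference was 0.006. Leaving out 1 array kept the count between 1136, without the EOM junction array of rat 25, and 1932. Without that array 536 genes were higher and 600 lower, and without the TA junction array of rat 27 the count was 1311, with 593 higher and 718 lower. In tissue of this kind, fewer cells of a type and less RNA per cell cannot be told apart.

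None of the 5 muscle acetylcholine receptor subunits passed the test by limma, with 2 at an unadjusted p under 0.05 and a median difference of 0.63, although Chrna1 and Chrne were higher in every EOM junction array than in any TA junction array. The promoters are shown because these genes are the ones that junctional nuclei transcribe most characteristically. Each line gives the 250 bases before the RefSeq start of transcription in rat assembly GRCr8, 5′ to 3′ on the gene's strand, for Chrne (chr10:55834155-55834404, minus strand), Chrnd (chr9:95310066-95310315, plus strand), Chrnb1 (chr10:55015108-55015357, minus strand) and Chrna1 (chr3:78877354-78877603, minus strand). Capitals mark the N-box CCGGAA and the E-box CAGCTG, the site of myogenic factors, searched on both strands.
Chrne: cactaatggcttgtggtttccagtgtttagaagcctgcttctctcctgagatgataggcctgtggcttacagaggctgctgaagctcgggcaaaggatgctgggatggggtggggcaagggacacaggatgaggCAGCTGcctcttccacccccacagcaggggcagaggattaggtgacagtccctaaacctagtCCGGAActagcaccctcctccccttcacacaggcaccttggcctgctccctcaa
Chrnd: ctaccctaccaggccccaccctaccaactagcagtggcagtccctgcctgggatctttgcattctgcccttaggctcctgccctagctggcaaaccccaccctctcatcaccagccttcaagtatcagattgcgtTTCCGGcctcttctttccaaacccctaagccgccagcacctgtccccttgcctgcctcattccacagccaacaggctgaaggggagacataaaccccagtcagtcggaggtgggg
Chrnb1: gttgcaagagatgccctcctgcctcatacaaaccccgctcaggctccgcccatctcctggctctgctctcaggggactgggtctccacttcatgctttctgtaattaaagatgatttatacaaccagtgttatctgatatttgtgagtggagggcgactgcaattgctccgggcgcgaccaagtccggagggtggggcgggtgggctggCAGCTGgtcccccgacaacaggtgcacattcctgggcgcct
Chrna1: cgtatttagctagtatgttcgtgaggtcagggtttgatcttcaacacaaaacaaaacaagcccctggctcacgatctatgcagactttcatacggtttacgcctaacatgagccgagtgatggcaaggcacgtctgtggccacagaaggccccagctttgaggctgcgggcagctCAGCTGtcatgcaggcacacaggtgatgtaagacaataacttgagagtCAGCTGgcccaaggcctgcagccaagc

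The N-box of Chrne began 54 bases before the start and its E-box 116 bases before it. In Chrnd the N-box lay on the other strand, where it reads as TTCCGG, 115 bases before the start. The windows of Chrnb1 and Chrna1 held no CCGGAA, and their E-boxes began 41 bases before the start in Chrnb1 and 75 and 27 bases before it in Chrna1. Of 33469 RefSeq promoters of the same length, 12.6% held the N-box and 12% the E-box. Among 8701 tested genes with a listed promoter, 25.1% held the N-box and 13.3% the E-box in any of their promoters. These shares count genes, which can have several promoters, so they cannot be set against those of single promoters. Counted by gene in the same way, 15.9% of 660 genes higher at EOM junctions held the N-box, and 21.7% of 756 genes lower there did. These shares describe letters in a window and are no evidence of binding.

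Chrne was at 11.28, 11.23, 11.38 and 11.55 in EOM junctions and at 10.67, 10.42, 9.92 and 10.67 in TA junctions. The groups did not overlap, and the difference of 0.94 ± 0.32 missed the threshold (adjusted p = 0.0624). It passed under 7 other settings of the analysis, with adjusted p from 0.00155 to 0.0488, and without the EOM fibre array of rat 27 or of rat 29 (adjusted p = 0.0189 to 0.0407). Chrna1, the subunit that carries the acetylcholine binding site, was at 12.91, 12.70, 12.73 and 12.90 against 12.37, 11.93, 12.12 and 12.31. Again the groups did not overlap and the test was not passed (0.63 ± 0.32, adjusted p = 0.203). In fibre the Chrna1 difference was 3.52 ± 0.32 (adjusted p = 1.55e-05), and the interaction of -2.89 passed (adjusted p = 0.00698), so the muscle difference of this subunit was smaller at junctions than away from them. With a pseudocount of 1 this interaction did not pass (adjusted p = 0.115). Chrnd was at 9.48, 9.51, 9.21 and 9.33 against 9.21, 8.43, 8.49 and 8.43, where the TA array of rat 15 reached the EOM range (0.74 ± 0.30, adjusted p = 0.106). Chrna1 and Chrnd passed with a pseudocount of 64 (adjusted p = 0.0213 and 0.0237) and in some fits of the junction arrays alone. Chrnb1 was higher in EOM in all 4 rats with overlapping groups (0.39 ± 0.19, adjusted p = 0.174). Chrng, the fetal subunit, lay between 4.47 and 6.04 in EOM and between 4.51 and 5.98 in TA, near the floor in both (-0.02 ± 0.34, adjusted p = 0.981).

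**Figure D1:**
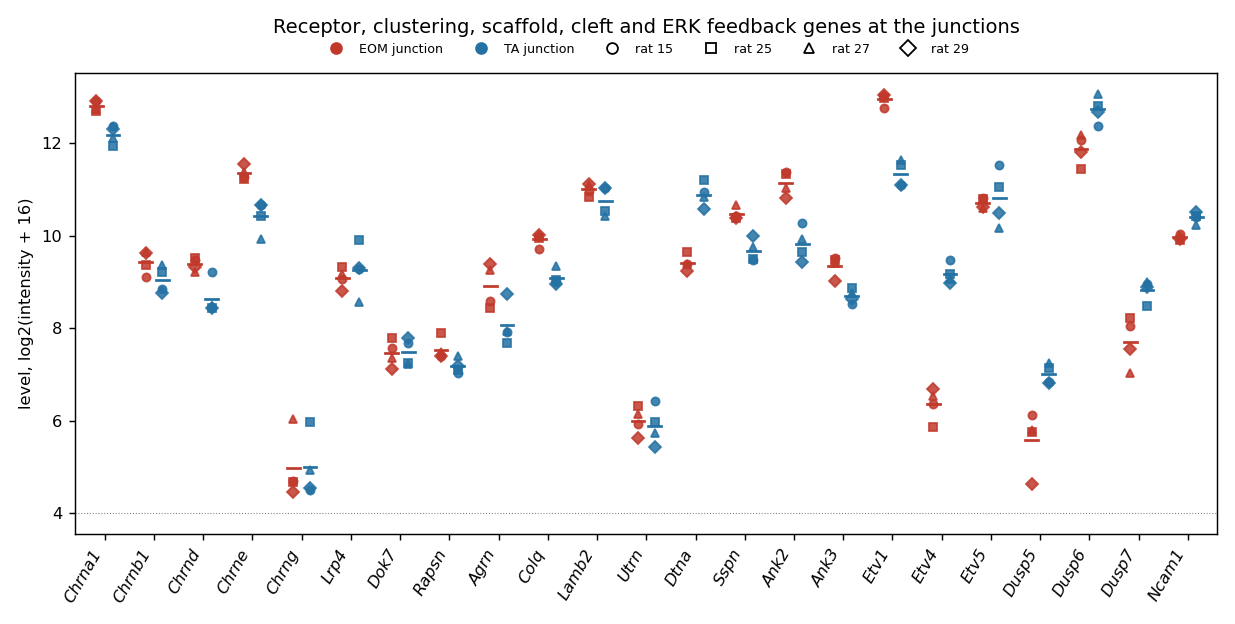
Levels, as log2(intensity + 16), of receptor, clustering and ETS genes on the 8 junction arrays, with EOM in red, TA in blue, 1 symbol shape per rat and a bar at each group mean. Chrne, Chrna1, Colq, Ank2 and Etv1 lie higher in all 4 EOM arrays, Dtna and Etv4 lower in all 4, and the arrays overlap for Lrp4, Dok7, Rapsn and Utrn.

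Among genes that gather and hold the receptors, the 22 measured on the agrin, MuSK and clustering list, 3 were higher and 1 lower (18.2%, beside 16.4% of all genes tested; median difference 0.19). With arrays centred on a common median 2 were called. Lrp4, the agrin receptor, was at 9.07, 9.33, 9.18 and 8.80 in EOM and 9.29, 9.90, 8.57 and 9.30 in TA, with overlapping groups (-0.17 ± 0.22, adjusted p = 0.653). Its fibre difference was 1.57, and the interaction of -1.75 passed (adjusted p = 0.0175). That call was lost without the EOM junction array of rat 29 or the TA junction array of rat 15 or 29 (adjusted p = 0.0502 to 0.0532), without the rat block (adjusted p = 0.0959) and with arrays centred on a common median (adjusted p = 0.184). Dok7, the activator of MuSK inside the cell, gave -0.03 ± 0.20 (adjusted p = 0.954), Rapsn, which links receptors together, 0.35 ± 0.25 (adjusted p = 0.367), and Agrn 0.85 ± 0.30 (adjusted p = 0.0706). Agrn passed under 5 other settings (adjusted p = 0.0121 to 0.0327) and without the EOM fibre array of rat 15 or the TA fibre array of rat 25 (adjusted p = 0.0238 to 0.0395). Musk itself was on the array but below the filter on low values. Ctnna1, alpha-catenin of the cadherin and actin link, was at 11.09, 11.02, 11.03 and 11.22 in EOM and at 9.96, 9.46, 9.98 and 10.02 in TA. All 4 EOM arrays were higher and the difference was 1.23 ± 0.21 (adjusted p = 0.00113), beside 1.12 in fibre. Macf1, a linker of microtubules and actin, rose by 0.83 ± 0.18 (adjusted p = 0.00587). Dnaja3, a co-chaperone that also binds MuSK, fell by 0.93 ± 0.20 (adjusted p = 0.00511), and did not pass with arrays centred on a common median (adjusted p = 0.0829).

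In the scaffold of dystrophin and utrophin, 3 of 16 measured genes were higher and 6 lower (56.2%, beside 16.4% of all genes tested, median -0.41). In all, 5 were called without the EOM junction array of rat 25 or 27 or the TA junction array of rat 29. With arrays centred on a common median 3 were called. Dtna, alpha-dystrobrevin, which stabilises receptor clusters, was at 9.39, 9.64, 9.39 and 9.25 in EOM and at 10.94, 11.20, 10.84 and 10.57 in TA. The groups stood well apart (-1.47 ± 0.20, adjusted p = 2.40e-04). A second probe set of Dtna gave 0.15, so the fall rests on 1 of its probe sets. Ank2, ankyrin-B, a membrane anchor, went the other way, with 11.37, 11.33, 11.02 and 10.82 in EOM against 10.28, 9.65, 9.94 and 9.42 in TA (1.31 ± 0.19, adjusted p = 3.96e-04). Utrn, the dystrophin relative concentrated at junctions, was at 5.62 to 6.32 in EOM and 5.43 to 6.42 in TA (0.11 ± 0.26, adjusted p = 0.823), while Dmd lay below the filter.

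Of the genes of the synaptic cleft and basal lamina 25 were measured, with a median difference of 0.30. At an unadjusted p under 0.05 by limma, 9 were higher and 1 lower. Past the adjusted threshold of limma 5 were higher and none lower, a called share near the 16.4% of all genes tested. That count fell to 1 to 3 when any of 11 arrays was left out, namely the 8 junction arrays, the EOM fibre array of rat 27 and the TA fibre arrays of rats 15 and 29, and to 0 with arrays centred on a common median. Colq, which anchors acetylcholinesterase in the cleft, was at 9.72, 9.95, 10.02 and 10.01 in EOM and at 9.0, 9.04, 9.34 and 8.96 in TA. No TA array reached the EOM range, yet the adjusted p was 0.199 (0.84 ± 0.42). It was 0.0231 and 0.0107 in fits of the 8 junction arrays alone, with and without the rat block, and 0.0477 without the TA fibre array of rat 27. Lamb2, the laminin chain of the synaptic basal lamina, overlapped between groups (0.25 ± 0.24, adjusted p = 0.536).

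ETS factors and their signalling partners split in direction. Among 24 measured genes of the ETS and ERK feedback list, 5 were higher and 4 lower (37.5%, beside 16.4% of all genes tested), with a median near 0 (-0.02). Without the EOM junction array of rat 27 or of rat 29, or with a pseudocount of 1, 5 were called in all. Etv1, an ETS factor of the group thought to act on N-boxes, was at 12.75, 12.97, 13.04 and 13.03 in EOM and at 11.09, 11.53, 11.64 and 11.10 in TA. It was higher in all 4 rats (1.61 ± 0.22, adjusted p = 2.78e-04), with a fibre difference of 2.86. Etv4, of the same subfamily, was at 6.37, 5.86, 6.53 and 6.69 in EOM and at 9.48, 9.18, 9.06 and 8.98 in TA. It was lower in every EOM array (-2.81 ± 0.25, adjusted p = 5.96e-06). The fibre difference of Etv4 was 0.07 and its interaction -2.88 (adjusted p = 0.00110), since Etv4 was higher at junctions than in fibre by 4.81 in TA and by 1.92 in EOM. Another probe set of Etv4 gave -0.91. With a pseudocount of 1 the call was lost (-1.02, adjusted p = 0.373), as was that of the interaction (adjusted p = 0.446). With genes above the median in at least 8 arrays the interaction was -1.46 (adjusted p = 0.0920). Each setting chose the probe set with the highest mean anew, and -1.02 lies near the value of the other probe set. A change of setting and a change of probe set thus cannot be told apart here. Etv5, the third member, overlapped between groups (-0.10 ± 0.36, adjusted p = 0.887).

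Egr2 and Ets1 of the same list were higher at EOM junctions. Egr2, a zinc finger factor induced by ERK signalling, was at 9.80, 9.13, 10.01 and 9.68 against 8.37, 7.49, 8.40 and 7.87 (1.63 ± 0.29, adjusted p = 0.00162), and Ets1 was higher by 1.48 ± 0.28 (adjusted p = 0.00256). Nr4a3, an orphan nuclear receptor induced by activity, rose by 1.61 ± 0.28 (adjusted p = 0.00164), although 1 of its other probe sets gave -0.14. Dusp5, Dusp6 and Dusp7 of the list encode ERK phosphatases. Dusp5 was at 6.13, 5.76, 5.80 and 4.63 against 6.84, 7.13, 7.24 and 6.83 (-1.43 ± 0.33, adjusted p = 0.00877), with adjusted p = 0.0575 at a pseudocount of 1. Dusp7 fell by 1.12 ± 0.28 (adjusted p = 0.0145), a call lost without the EOM junction array of rat 27 or 29 (adjusted p = 0.0521 to 0.0531). Dusp6 fell by 0.86 ± 0.26 (adjusted p = 0.0350), lost without the EOM or TA junction array of rat 25, 27 or 29 (adjusted p = 0.0632 to 0.122). In the list of 21 genes of the response to activity and denervation 2 rose and 2 fell, with a median of 0.27. These were 19.0%, near the 16.4% of all genes tested. Without the TA junction array of rat 29, or with intensities as deposited, 7 were called. Runx1, a factor raised by denervation, was at 6.37, 5.97, 5.82 and 6.27 against 7.32, 7.37, 7.87 and 7.54, lower in all EOM arrays (-1.42 ± 0.29, adjusted p = 0.00435). A second probe set of Runx1 gave -0.19. Myog, the myogenic factor that rises with denervation, overlapped (0.27 ± 0.25, adjusted p = 0.518).

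Channels and pumps of the membrane also differed in both directions, with 3 of 22 measured genes higher and 6 lower (40.9%, beside 16.4% of all genes tested, median -0.12). In all, 5 were called without the EOM junction array of rat 25 or with arrays centred on a common median. Atp1b1, a beta subunit of the sodium pump, was at 13.80, 14.00, 14.14 and 13.98 in EOM and at 11.49, 11.44, 11.78 and 11.03 in TA. Its difference was 2.54 ± 0.20 (adjusted p = 2.47e-06) at junctions and 2.42 in fibre (interaction adjusted p = 0.926). Atp1b2, the other measured beta subunit named here, was lower, at 6.79, 7.08, 6.52 and 7.14 against 8.38, 8.18, 8.75 and 8.47 (-1.56 ± 0.30, adjusted p = 0.00291). Both beta subunits thus differed between the muscles, in opposite directions. Kcnj12, an inward rectifier potassium channel, was at 7.59, 7.51, 7.02 and 7.51 against 9.84, 9.38, 8.28 and 9.0 (-1.72 ± 0.39, adjusted p = 0.00787). Cacna1s, the voltage sensor of excitation-contraction coupling, was at 7.87, 8.20, 8.10 and 8.41 against 9.40, 9.56, 9.06 and 10.30 (-1.44 ± 0.26, adjusted p = 0.00201). All EOM arrays lay below all TA arrays for both channels. The muscle sodium channel gene Scn4a was on the array below the filter.

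Among 35 measured genes of calcium release, buffering and calcineurin, 7 were higher at EOM junctions and 9 lower (45.7%, beside 16.4% of all genes tested, median -0.17). Rcan2, an inhibitor of calcineurin, was at 13.95, 13.78, 13.97 and 13.55 in EOM and at 9.03, 8.02, 8.73 and 8.21 in TA. The gap of 5.31 ± 0.28 (adjusted p = 3.75e-08) exceeded that in fibre of 2.71 (interaction 2.60, adjusted p = 0.00574), and a second probe set gave 3.11. Its relative Rcan1 overlapped between groups (-0.21 ± 0.23, adjusted p = 0.588). Stim1, the calcium sensor of store-operated entry, was at 12.01, 11.63, 11.41 and 11.68 against 10.33, 10.33, 10.21 and 10.55, higher in every EOM array (1.33 ± 0.19, adjusted p = 4.05e-04). Calml4, a calmodulin-like protein, was at 5.79, 5.46, 6.06 and 4.75 in EOM and at 11.35, 10.42, 11.23 and 11.68 in TA. Its fall of 5.65 ± 0.39 (adjusted p = 7.67e-07) was seen at junctions, with fibre means of 5.19 in EOM and 5.50 in TA (interaction adjusted p = 2.70e-04). Camk2d, a calcium and calmodulin dependent kinase, was at 9.51, 9.45, 9.61 and 9.54 against 11.69, 11.68, 12.26 and 11.30 (-2.20 ± 0.23, adjusted p = 3.54e-05). A second probe set of Camk2d gave -0.41. Jph2, which holds the junction of plasma membrane and reticulum, fell by 1.56 ± 0.26 (adjusted p = 0.00102).

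The contractile genes of the captured fibre set both muscles apart at junctions. Of 13 developmental or extraocular sarcomere genes measured, 7 were higher and none lower by limma (9 and 0 at an unadjusted p under 0.05, median 1.46). Of 19 fast fibre genes none were higher by limma and 8 lower (1 and 10 at an unadjusted p under 0.05, median -0.50). The called shares were 53.8% of the developmental or extraocular list and 42.1% of the fast fibre list, beside 16.4% of all genes tested. The filter also kept genes above the array median in the arrays of 1 muscle only. Myh13 was above it in all 4 EOM junction arrays and in 0 TA junction arrays. The count and median of the developmental or extraocular list thus rest in part on genes kept for their EOM level. Myh13, the extraocular myosin heavy chain, was at 13.43, 13.73, 13.43 and 13.44 in EOM and at 4.67, 4.36, 4.33 and 4.74, near the floor, in TA. This was the largest difference of all genes called (8.98 ± 0.33, adjusted p = 2.71e-09), and the fibre difference was 8.58 (interaction adjusted p = 0.821). Myh8, the perinatal myosin, was at 12.34, 12.11, 11.80 and 11.61 against 5.12, 6.01, 6.08 and 5.53 (6.28 ± 0.32, adjusted p = 3.45e-08). Myh3, the embryonic myosin, was higher in all EOM arrays, at 7.71, 6.71, 6.59 and 7.06 against 4.47, 4.66, 6.34 and 4.93, without passing the test (1.92 ± 0.77, adjusted p = 0.106). It passed in fits of the 8 junction arrays (adjusted p = 0.00879 to 0.0247) and without the EOM fibre array of rat 29 (adjusted p = 0.0380). Myosin heavy chain genes are close copies of each other, and cross-hybridisation between their probe sets was not tested.

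Of the 4 limb-type myosins measured (Myh1, Myh2, Myh4 and Myh7), Myh2, of the fast oxidative fibre type, was called. Myh2 was at 12.35, 11.83, 11.26 and 11.83 in EOM and at 14.51, 13.85, 14.27 and 13.41 in TA (-2.19 ± 0.25, adjusted p = 5.63e-05). Myh1, Myh4 and Myh7 overlapped between groups, with differences of 0.55, -0.11 and 0.09, and Myh1 passed with a trended and robust prior (adjusted p = 0.0404). Actn3, the alpha-actinin of fast fibres, was at 12.44, 13.04, 12.78 and 13.37 against 14.96, 15.20, 14.79 and 15.38 (-2.17 ± 0.20, adjusted p = 1.00e-05). Mybpc2, fast myosin-binding protein C, was at 11.60, 11.53, 11.24 and 12.40 against 14.08, 14.51, 13.87 and 14.29, and fell by 2.49 ± 0.20 (adjusted p = 2.78e-06), beside a fibre difference of -1.04. Of 16 slow fibre genes 4 were higher and 3 lower (43.8%, beside 16.4% of all genes tested, median 0.30). Pln, the inhibitor of the slow calcium pump, was at 8.86, 8.91, 8.19 and 8.55 against 6.77, 5.20, 7.14 and 6.48 (2.23 ± 0.44, adjusted p = 0.00320), and the pump gene Atp2a2 rose by 1.68 ± 0.26 (adjusted p = 5.67e-04). Myl3, the slow light chain, moved the other way, at 8.05, 8.37, 7.93 and 9.10 against 11.24, 10.03, 10.95 and 9.90 (-2.17 ± 0.37, adjusted p = 0.00138). Among 31 genes of the M band, Z disc and chaperones 1 was higher and 12 lower (41.9%, beside the same 16.4%, median -0.55). The riser was Hspb6, a small heat shock protein (1.21 ± 0.20, adjusted p = 0.00113).

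Myom2, the M-protein of the M band, had the largest fall. It was at 6.64, 7.61, 6.03 and 7.73 in EOM junctions and at 14.12, 14.14, 14.20 and 14.17 in TA junctions (-7.15 ± 0.32, adjusted p = 1.50e-08). The TA arrays lay within a narrow band while those of EOM were spread. The fall exceeded that in fibre (-3.73, interaction adjusted p = 0.00207).

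**Figure D2:**
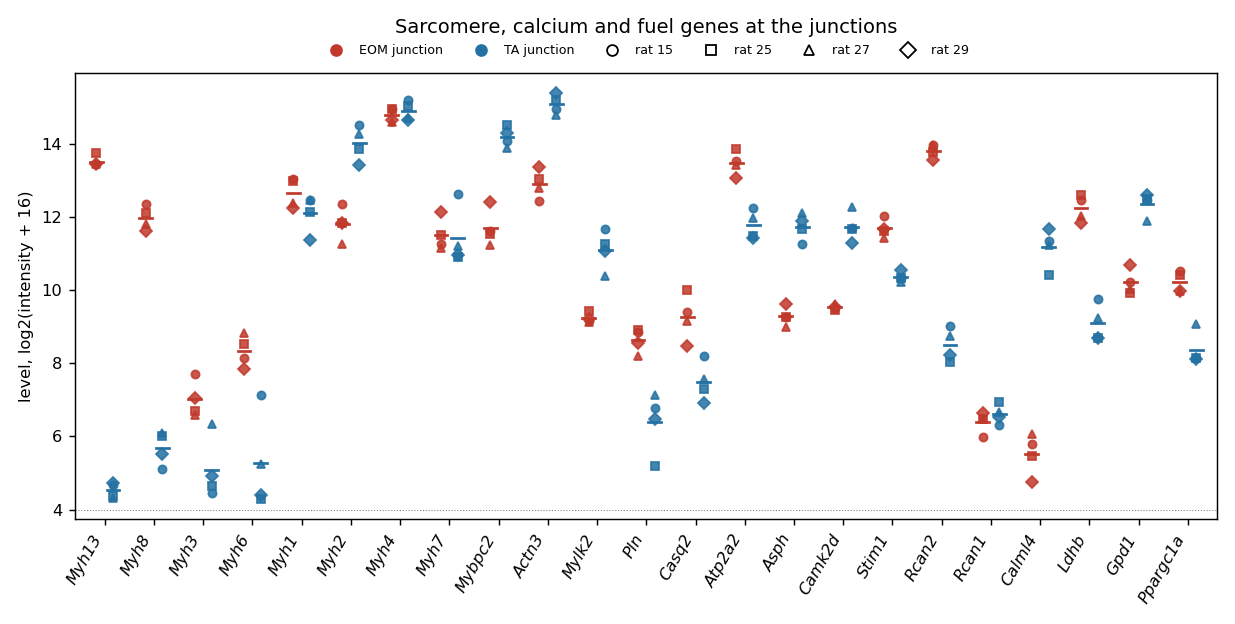
Levels, as log2(intensity + 16), of sarcomere, calcium and fuel genes on the 8 junction arrays, with EOM in red, TA in blue, 1 symbol shape per rat and a bar at each group mean. Myh13 and Myh8 lie far higher in EOM, Myh2, Actn3, Mybpc2 and Calml4 lie lower, and the arrays overlap for Myh1, Myh4 and Myh7.

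Fuel genes were read in separate lists. Of 25 measured genes of glycogen and glycolysis 4 were higher and 8 lower (48.0%, beside 16.4% of all genes tested, median -0.37). Of 46 genes of oxidative phosphorylation and the citrate cycle 8 were higher and none lower past the adjusted threshold of limma. These were 17.4%, near the 16.4% of all genes. The list median was 0.29, with 39 of 46 above 0. At an unadjusted p under 0.05, with no share of all genes to set beside them, 14 were higher and 0 lower. The adjusted count fell to 3 to 5 without any 1 of 7 junction arrays, all but the EOM array of rat 15, and to 2 with arrays centred on a common median. It was also 2 with arrays centred on the median of the genes tested, where the list median turned to -0.03. Ldhb, the lactate dehydrogenase subunit of oxidative tissue, was at 12.46, 12.59, 12.03 and 11.84 in EOM and at 9.76, 8.68, 9.25 and 8.68 in TA (3.14 ± 0.31, adjusted p = 1.60e-05). Eno1, the ubiquitous enolase, was at 10.44, 10.28, 10.59 and 10.50 against 8.41, 7.94, 8.40 and 9.04 (2.00 ± 0.21, adjusted p = 3.04e-05). Gpd1, of the glycerol phosphate shuttle, was lower, at 10.22, 9.92, 10.04 and 10.68 against 12.45, 12.50, 11.88 and 12.59 (-2.14 ± 0.20, adjusted p = 9.10e-06). Its fibre difference was -0.61, and a second probe set gave -0.58 at junctions. Phka1, a regulatory subunit of phosphorylase kinase, which starts glycogen breakdown, fell by 1.81 ± 0.19 (adjusted p = 3.04e-05), and Pfkfb1, which makes the activator of phosphofructokinase, fell by 1.93 ± 0.23 (adjusted p = 7.37e-05). Their interactions did not pass (adjusted p = 0.387 and 0.893).

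Mdh1, cytosolic malate dehydrogenase, was at 13.98, 13.91, 13.87 and 13.89 against 12.58, 12.49, 12.52 and 12.60, tight in both groups (1.36 ± 0.19, adjusted p = 2.92e-04). Ppargc1a, the coactivator that drives mitochondrial biogenesis, was at 10.51, 10.40, 9.97 and 9.98 against 8.13, 8.14, 9.09 and 8.10 (1.85 ± 0.27, adjusted p = 3.56e-04). The TA array of rat 27 was high for Ppargc1a and still below all EOM arrays. Of 33 genes of the PGC-1 alpha and fatty acid list 8 were higher and 2 lower (30.3%, beside 16.4% of all genes tested, median 0.31). With arrays centred on a common median 5 of the list were called. Lpl, which frees fatty acids from blood lipid, rose by 1.80 ± 0.23 (adjusted p = 1.43e-04) and Slc27a1, a fatty acid transporter, by 1.32 ± 0.22 (adjusted p = 9.64e-04). The list of carbonic anhydrases, which hydrate carbon dioxide, and membrane transporters had 4 of 11 measured members lower and 1 higher (45.5%, median -0.52). The 4 were the anhydrases Car2, Car3 and Car14 and the bicarbonate transporter Slc4a4, and the riser was Aqp1, a water channel. With arrays centred on a common median 3 were called, as they were without the EOM junction array of rat 25, 27 or 29 or the TA junction array of rat 25. Slc4a4 lost its call without any of 14 arrays, all but the EOM fibre array of rat 29 and the TA junction array of rat 27 (adjusted p = 0.0520 to 0.178). Aqp1 lost its call without any of 5 junction arrays, of rats 25, 27 and 29 in EOM and 25 and 27 in TA (adjusted p = 0.0578 to 0.0731). A second probe set of Aqp1 gave -0.07, and the mean of its probe sets did not pass (adjusted p = 0.318). Car3 was at 7.72, 8.24, 7.21 and 8.57 in EOM junctions and at 14.17, 14.17, 14.23 and 14.06 in TA junctions (-6.22 ± 0.28, adjusted p = 1.50e-08). In fibre Car3 was at 12.44 ± 0.51 (SD, n = 4) in EOM and 13.94 ± 0.31 in TA, so the EOM junction level lay below all other groups (interaction -4.72, adjusted p = 3.54e-05). Car2 was at 8.26, 8.14, 7.83 and 6.93 against 10.11, 9.37, 9.73 and 10.55 (-2.15 ± 0.34, adjusted p = 6.99e-04), with a fibre difference of 0.08.

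**Figure D3:**
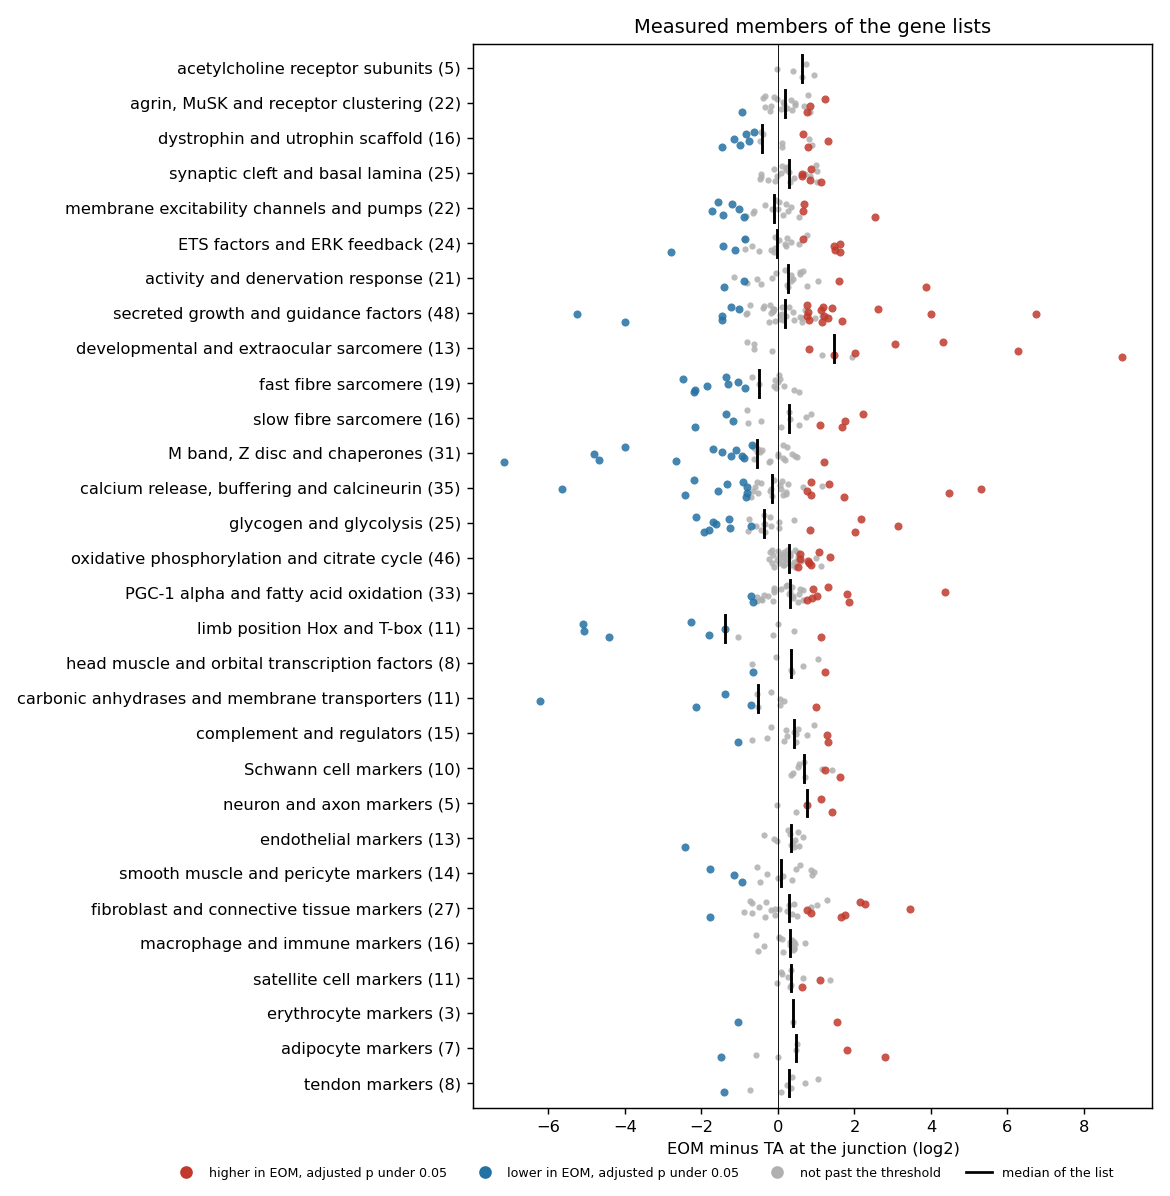
For each gene list, the EOM minus TA junction difference (log2) of every measured member, with genes higher in red, lower in blue and not past the test in grey, and a bar at the list median. The extraocular sarcomere list has its median at 1.46 and the Hox and T-box list at -1.37, while the other lists have medians between -0.55 and 0.76.

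Secreted factors held 14 higher and 6 lower among 48 measured genes (41.7%, beside 16.4% of all genes tested, median 0.18). In all, 13 were called without the TA junction array of rat 29. Frzb, a secreted Wnt antagonist, was at 14.00, 14.34, 13.85 and 13.68 in EOM and at 7.52, 6.84, 8.39 and 6.15 in TA (6.74 ± 0.32, adjusted p = 2.53e-08). Fst, follistatin, which binds activin and myostatin, was at 10.56, 10.83, 11.32 and 10.65 against 5.84, 6.96, 7.63 and 6.98 (3.99 ± 0.29, adjusted p = 1.31e-06). Igfbp5, a carrier of insulin-like growth factors, was at 12.56, 12.12, 12.65 and 12.48 against 9.97, 9.99, 10.07 and 9.30 (2.62 ± 0.29, adjusted p = 4.11e-05). Wnt4 rose by 1.68 ± 0.37 (adjusted p = 0.00642). On the other side, Nptx1, a pentraxin that gathers glutamate receptors at synapses in the brain, was at 6.25, 6.03, 5.50 and 5.88 in EOM and at 11.97, 12.95, 11.36 and 8.39 in TA. The TA array of rat 29 was the lowest of its group and still above all EOM arrays (-5.25 ± 0.67, adjusted p = 1.32e-04). Bmp5, a bone morphogenetic protein, was at 6.83, 7.37, 8.24 and 7.69 against 11.08, 11.73, 12.35 and 10.96 (-4.00 ± 0.35, adjusted p = 6.12e-06). Tgfb2 and Wnt9a fell by similar amounts, 1.46 ± 0.20 (adjusted p = 2.15e-04) and 1.46 ± 0.19 (adjusted p = 2.05e-04).

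The measured genes of body position were mostly lower at EOM junctions. Of 36 Hox and T-box genes on the list 25 were on the array and 11 passed the filter on low values. Of the 11, 6 were lower and 1 higher in EOM (63.6% called, beside 16.4% of all genes tested, median -1.37). Hoxa10, Hoxa9 and Hoxa5 were above the array median in all 4 TA junction arrays and in 0 EOM junction arrays. They passed the filter through the TA arrays, so the count and median rest in part on genes kept for their TA level. Hoxa10 was at 4.23, 4.18, 5.04 and 4.11, near the floor, in EOM and at 9.95, 10.16, 8.77 and 9.03 in TA (-5.09 ± 0.29, adjusted p = 1.08e-07, interaction adjusted p = 0.819). Hoxa9 was at 4.23, 4.19, 4.43 and 5.36 against 9.79, 10.12, 9.07 and 9.54 (-5.07 ± 0.26, adjusted p = 3.26e-08, interaction adjusted p = 0.974). These genes specify position along the trunk and limb. The riser was Tbx18 (1.14 ± 0.21, adjusted p = 0.00198). Of 8 measured factors of head muscle and orbit 2 were called (25.0%, beside 16.4% of all genes tested). Eya1, a transcriptional coactivator of eye and muscle development, rose by 1.23 ± 0.22 (adjusted p = 0.00201) and Six4 fell by 0.66 ± 0.16 (adjusted p = 0.0128). Six4 did not pass with arrays centred on a common median (adjusted p = 0.167) or in 3 other settings.

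**Figure D4:**
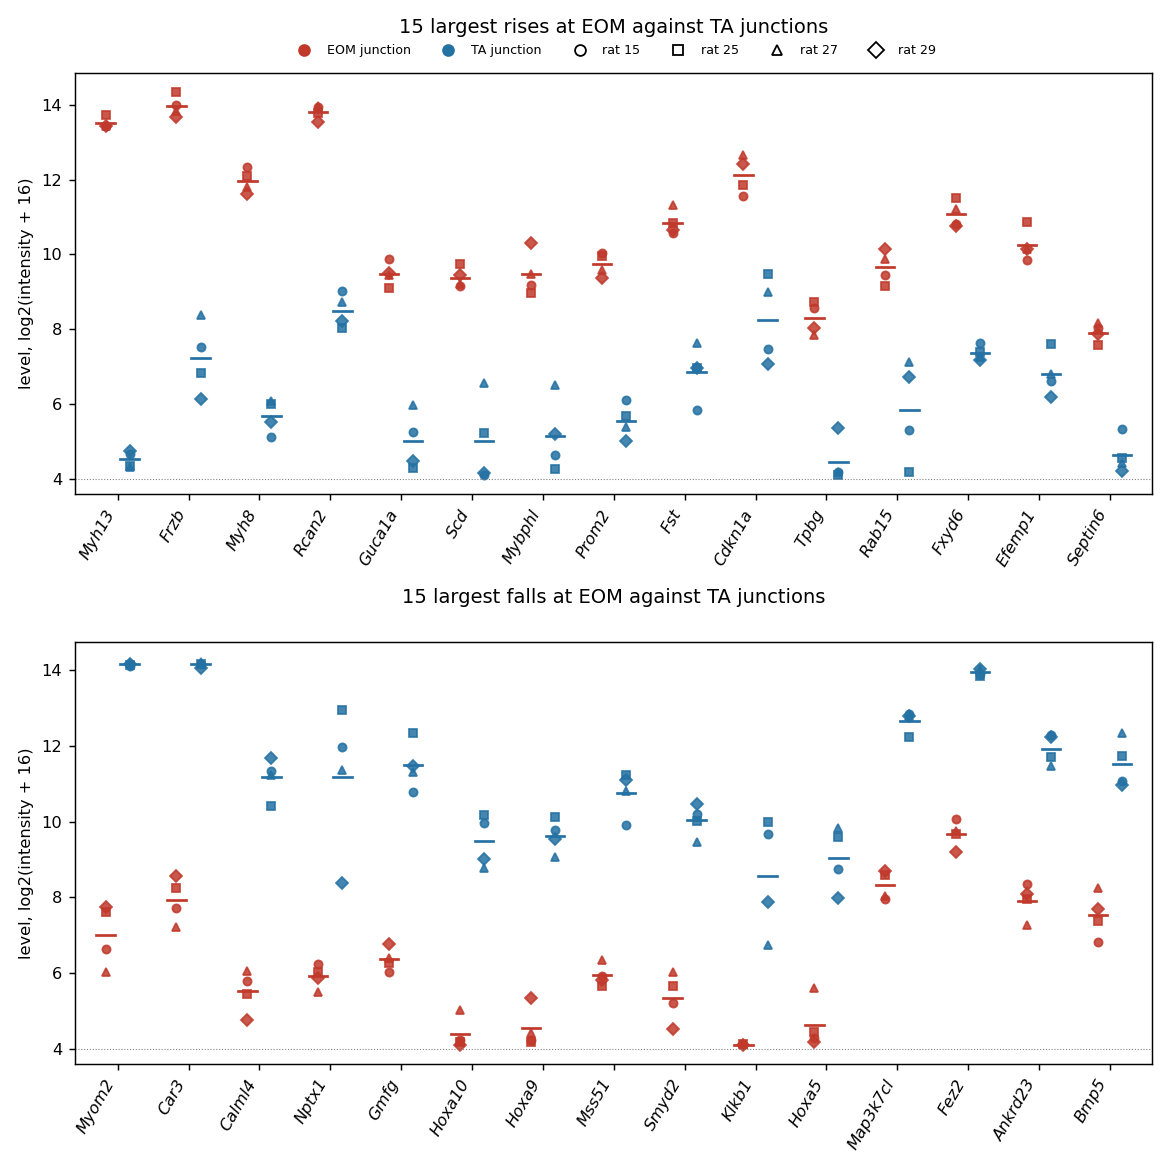
Levels, as log2(intensity + 16), on the 8 junction arrays of the 15 genes with the largest rise (top) and the 15 with the largest fall (bottom) among genes called with that sign in all 4 rats, with EOM in red, TA in blue, 1 symbol shape per rat and a bar at each group mean. No TA array overlaps the EOM arrays for any of the 30 genes, and the dotted line marks the floor of 4.

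Other genes rose by large amounts. Guca1a, an activator of guanylate cyclase known from photoreceptors, was higher by 4.48 ± 0.39 (adjusted p = 4.98e-06), Scd, a fatty acid desaturase, by 4.36 ± 0.48 (adjusted p = 4.11e-05), and Cdkn1a, the cell cycle inhibitor p21, by 3.87 ± 0.45 (adjusted p = 6.38e-05). Mybphl, a relative of myosin-binding protein H, rose by 4.33 ± 0.35 (adjusted p = 2.78e-06) and Fxyd6, a modulator of the sodium pump, by 3.71 ± 0.30 (adjusted p = 2.78e-06). Rab15, a GTPase of endocytic recycling, rose by 3.82 ± 0.42 (adjusted p = 4.11e-05), beside 6.62 in fibre, and its other probe sets gave 0.33 and 0.36. Among the falls, Smyd2, a lysine methyltransferase, fell by 4.68 ± 0.43 (adjusted p = 9.10e-06), and Mss51, which shares its MYND zinc finger, fell by 4.82 ± 0.38 (adjusted p = 2.78e-06). Ankrd23, a stretch-response protein that binds titin, fell by 4.01 ± 0.27 (adjusted p = 6.02e-07).

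Whether a muscle difference at junctions differed from that in fibre, in either direction, was asked by the interaction. It passed for 96 of 10416 genes (0.922%), 27 (0.259%) higher and 69 (0.662%) lower. Of the 1712 genes called at junctions, 835 were also called in fibre in the same direction, 5 in the opposite direction, and 872 were not called in fibre, where 1620 genes (15.6%) were called in all. An interaction was called for 54 of those 872, and for the other 400 higher and 418 lower genes no difference between regions was shown. Of the 72 genes with both calls, 21 were higher in both, 48 lower in both and 3 had opposite signs. The other called interactions belonged to genes called in fibre and not at junctions. Of these, 18 were higher in EOM fibre with a negative interaction and 6 lower with a positive one. Without the EOM fibre array of rat 25 the interaction was called for 62 genes, and single arrays left out gave 56 to 99.

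Prom2, a prominin of membrane protrusions, had the largest positive interaction of the genes called in both tests. It was at 10.05, 9.96, 9.60 and 9.38 in EOM junctions and at 6.12, 5.68, 5.40 and 5.01 in TA junctions (4.19 ± 0.20, adjusted p = 2.56e-08), with a fibre difference of -0.10 (interaction 4.29, adjusted p = 8.58e-06). Septin6, a cytoskeletal GTPase, was at 8.04, 7.57, 8.16 and 7.88 against 5.33, 4.57, 4.43 and 4.22 (interaction 3.34, adjusted p = 0.0117). A second probe set of Septin6 gave -0.12 at junctions, and its interaction was not past the threshold with a pseudocount of 1 (adjusted p = 0.118). Slc24a2, a sodium, calcium and potassium exchanger, was at 9.01, 8.60, 8.27 and 8.53 against 5.88, 6.0, 4.39 and 5.62 (interaction 3.41, adjusted p = 0.0176), not past the threshold without the EOM junction array of rat 27 (adjusted p = 0.0557) or with a pseudocount of 1 (adjusted p = 0.168). Fgf12, an intracellular modulator of sodium channels, was at 7.53, 8.28, 7.87 and 7.71 against 5.45, 5.87, 4.88 and 5.74 (interaction 3.11, adjusted p = 0.0105; 0.0950 with a pseudocount of 1). Tpbg, a membrane glycoprotein that restrains Wnt signalling, was at 8.57, 8.74, 7.85 and 8.04 against 4.18, 4.10, 4.18 and 5.35 (3.85 ± 0.33, interaction adjusted p = 0.0116; 0.176 with a pseudocount of 1).

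The largest interactions by size were negative. Nptx1 had fibre means of 5.64 in EOM and 4.39 in TA, so the level of the TA junctions stood apart from the other groups (interaction -6.50, adjusted p = 0.00478). Gmfg, glia maturation factor gamma, which disassembles branched actin, was at 6.02, 6.27, 6.39 and 6.76 in EOM junctions and at 10.78, 12.35, 11.32 and 11.47 in TA junctions (-5.12 ± 0.26, adjusted p = 3.15e-08). Its fibre difference was -0.43 (interaction -4.69, adjusted p = 1.72e-05). Cacna2d3, an auxiliary calcium channel subunit, was at 7.51, 7.17, 6.70 and 6.65 against 10.10, 9.72, 9.66 and 10.09 (-2.88 ± 0.25, adjusted p = 5.96e-06). In fibre its direction was the opposite (1.90, adjusted p = 2.57e-04; interaction -4.78, adjusted p = 1.72e-05). Map3k7cl was at 7.96, 8.58, 8.04 and 8.69 against 12.84, 12.24, 12.79 and 12.80, with a fibre difference of 0.14 (interaction -4.49, adjusted p = 4.11e-05). Klkb1, plasma prekallikrein, was at the floor in all EOM junction arrays (4.11 to 4.12) and at 9.66, 9.98, 6.75 and 7.88 in TA (interaction -4.35, adjusted p = 0.00743). Fez2 fell by 4.28 ± 0.23 (adjusted p = 5.24e-08), against 1.65 in fibre (interaction adjusted p = 0.00136).

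**Figure D5:**
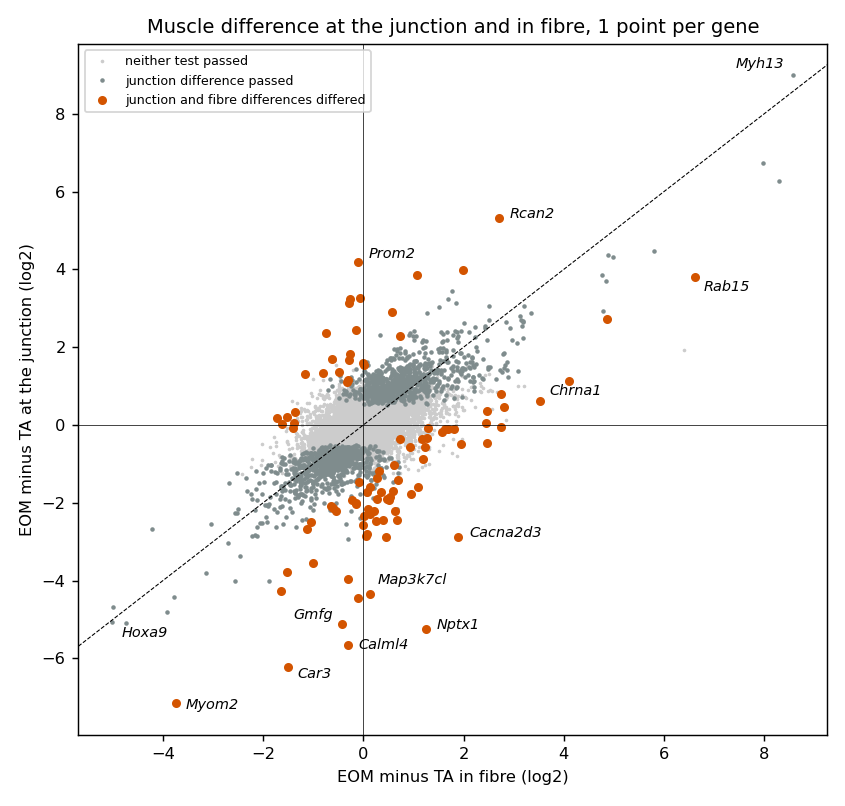
EOM minus TA difference (log2) in fibre on the horizontal axis and at junctions on the vertical axis, 1 point per gene tested, with genes of a called interaction coloured and the diagonal marking equal differences. Myh13 lies near the diagonal at 8.58 and 8.98, whereas Nptx1, Gmfg, Calml4 and Car3 lie far below it and Prom2 above it.

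Lists of markers of other cells were read against the 16.4% of all genes called. Summed levels below are log2 of the summed intensity of the measured members on each array. Since each probe set has its own response, the sums are weighted by that response and do not measure cell content. The part of a gene in a sum is a part of the signal only. All 10 measured Schwann cell markers had positive differences (median 0.68), and 2 passed, Mbp and Pmp22, both of myelin. Mbp was at 9.97, 10.33, 11.33 and 11.13 against 8.85, 9.0, 9.26 and 9.19 (1.62 ± 0.36, adjusted p = 0.00740), with adjusted p = 0.0844 at a pseudocount of 1, and Pmp22 rose by 1.24 ± 0.23 (adjusted p = 0.00215), with adjusted p = 0.0670 under centring on a common median. The summed level of the list was 12.93 to 13.84 in EOM and 11.76 to 12.49 in TA, with Pmp22, at a mean of 12.87 against 11.63, a large part of it. Of 21 neuron and axon markers only 5 passed the filter, with 3 of them higher (median 0.76) and the summed level at 8.55 to 9.41 against 7.60 to 8.11. With no filter on low values the list median turned to -0.04 and 2 were called. Without the EOM junction array of rat 25 or 27 or the TA junction array of rat 27, 1 was called. Fibroblast markers had 7 of 27 higher and 1 lower (median 0.29, summed level 14.94 to 15.73 against 14.49 to 15.25). Among them Gsn, gelsolin, rose by 2.27 ± 0.48 (adjusted p = 0.00512), Dpt, dermatopontin, by 2.14 ± 0.29 (adjusted p = 2.52e-04), and Col6a3, a collagen VI chain, fell by 1.78 ± 0.30 (adjusted p = 0.00113). The part of these cells in the differences of cleft, secreted and channel genes was not tested.

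Endothelial markers had 1 of 13 lower, Plvap, a protein of fenestrated vessels, at 8.26, 8.34, 8.17 and 9.03 against 11.02, 10.96, 11.14 and 10.44 (-2.44 ± 0.37, adjusted p = 5.96e-04). Its fibre difference was 0.66 and the interaction -3.10 (adjusted p = 0.0117; 0.0970 with a pseudocount of 1). The other 12 endothelial markers did not pass, the list median was 0.35, and 2 were called without the EOM or TA junction array of rat 29. The summed endothelial level was 10.90 to 11.40 in EOM and 11.49 to 12.07 in TA, a gap carried largely by Plvap, at a mean of 8.45 against 10.89. Of the 13 differences 9 were positive and 4 negative. Smooth muscle and pericyte markers had 3 of 14 lower, while 8 of 14 had a positive difference (median 0.07, which turned to -0.05 with arrays centred on the median of the genes tested). Their summed level of 12.42 to 12.62 against 13.47 to 13.94 was carried largely by Synm, at a mean of 11.38 against 13.14. The largest of these falls was Synm, synemin, an intermediate filament protein that muscle fibres also make (-1.77 ± 0.18, adjusted p = 2.05e-05). None of 16 macrophage markers was called by limma (1 at an unadjusted p under 0.05, median 0.31, summed level 10.91 to 11.84 against 11.12 to 11.36). Of 11 satellite cell markers 2 were higher (median 0.34, summed level 12.17 to 12.42 against 11.64 to 11.86), led by Notch1 (1.1 ± 0.24, adjusted p = 0.00586), whose call was lost with the mean of its probe sets (adjusted p = 0.121). That count was 1 without any 1 of 9 arrays: the EOM junction arrays, the TA junction arrays of rats 25 and 27, the EOM fibre array of rat 27 and the TA fibre arrays of rats 15 and 29. Of 7 adipocyte markers 2 were higher and 1 lower (median 0.46, or -0.05 without the TA junction array of rat 27). Their summed level was 11.87 to 12.77 against 11.19 to 11.60, with Lpl, at a mean of 12.15 against 10.35, a large part of it. Cidea, a lipid droplet protein, was at 8.19, 8.11, 8.28 and 8.01 against 5.72, 5.93, 4.27 and 5.46 (2.80 ± 0.31, adjusted p = 4.11e-05). Of 3 erythrocyte markers 1 was higher and 1 lower, with at most 1 called without any 1 junction array. Tendon markers had 6 of 8 positive differences (median 0.29), none of them called by limma (1 at an unadjusted p under 0.05). The 1 called was Scx, which fell by 1.42 ± 0.29 (adjusted p = 0.00398), and 2 were called without the EOM fibre array of rat 15 or the EOM junction array of rat 25.

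Complement genes, whose protein products attack membranes in autoimmune disease of the junction, had 2 of 15 higher and 1 lower (median 0.41). The called share was near the 16.4% of all genes tested, and 1 was called with arrays centred on a common median. C1s, a protease that starts the classical pathway, was at 11.29, 11.97, 11.76 and 11.30 against 10.12, 10.93, 10.00 and 10.02, with the TA array of rat 25 nearest to the EOM range (1.31 ± 0.21, adjusted p = 7.76e-04). Cd55, which protects membranes from complement, was at 9.36, 9.40, 8.80 and 8.82 against 8.22, 8.62, 6.37 and 8.09. It was higher in all EOM arrays (1.27 ± 0.33, adjusted p = 0.0175), and the call was lost without the EOM junction array of rat 15 or 27 or the TA junction array of rat 27 (adjusted p = 0.0580 to 0.0669), without the rat block (adjusted p = 0.0516) and with centring on a common median (adjusted p = 0.0522). Cd59b, which blocks the final step of attack, gave -0.30 ± 0.18 (adjusted p = 0.300). Clu, a fluid-phase inhibitor, fell by 1.03 ± 0.24 (adjusted p = 0.0102), with adjusted p = 0.0743 under centring on a common median.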

How the data were processed

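The authors deposited 1 linear intensity for each of 31099 probe sets of an Affymetrix rat array. The 2% trimmed mean of the intensities as deposited was 150.06 to 150.08 on every array, and the summarising software was not given in the sources used here. After 57 control probe sets were left out, log2(intensity + 16) was quantile normalized over 16 arrays. Names came from the array annotation with symbols of assembly GRCr8: 20832 probe sets had 1 gene, 436 several, and 9780 were not listed. Probe sets above the array median in at least 4 arrays were kept (18726), and each gene was read from the 1 with the highest mean, giving 10416 genes. Genes above the median in the arrays of 1 muscle only also passed, while genes low in all groups did not.

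The model was fitted in limma 3.58.1 (R 4.3.3) over 4 groups, the rat being a fixed block (9 residual and 4.58 prior degrees of freedom), with Benjamini-Hochberg adjustment over all genes and a threshold of 0.05. The titles' numbers were read as rats, since the labels' protocols give 4 rats with both muscles taken from each. After group means were removed, EOM and TA junction arrays of the same rat correlated across genes at 0.171, 0.123, 0.059 and 0.111 for rats 15, 25, 27 and 29, and for 14 of 16 arrays the closest others were of the same rat. The number of arrays limits the precision.

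The comparison and the 30 gene lists were chosen with earlier results of these data known. Named genes are the 15 largest rises and 15 largest falls with that sign in all 4 rats, up to 4 called members of each list in each direction, every measured receptor subunit, a set of junction, myosin and complement genes, and the 5 largest interactions in each direction among genes called in both tests. Not all are printed. The steps were tested on simulated data. Alternatives changed the normalization, pseudocount, filter, block, prior, choice of probe set, arrays in the fit and minimum difference, and left out each array and each rat. Promoters are those of RefSeq, searched in the 250 bases before the start.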

Additional observations from a re-analysis of the deposited data

Results flagged for a closer look

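In 314 groups of 4 arrays of the named genes at junctions, 16 had an array far from the other 3 by Dixon's test, which chance passes in about 1 group in 20. Of these 7 were in EOM and 9 in TA junctions, and 4 were the EOM array of rat 27. That array was high for Hoxa10 (5.04), Chrng (6.04) and Sspn (10.65) and low for Kcnj12 (7.02). The EOM array of rat 25 was high for Myh13 (13.73) and Rapsn (7.89), and that of rat 15 was low for Slc2a4 (9.66). In TA, the array of rat 27 was high for Ppargc1a (9.09) and Slc4a1 (6.57), and that of rat 25 was high for C1s (10.93) and low for Map3k7cl (12.24) and Ctnna1 (9.46). The TA array of rat 29 was high for Tpbg (5.35) and low for Igfbp5 (9.30), and that of rat 15 was high for Chrnd (9.21) and low for Notch1 (7.52).

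For 27 named genes the muscle difference at junctions differed from that in fibre by the limma test of the interaction. It was more positive at junctions for Prom2 (4.29), Kcnip3 (3.51), Slc24a2 (3.41), Septin6 (3.34), Fgf12 (3.11), Tpbg (2.78), Rcan2 (2.60) and Fst (2.00). Kcnip3, a potassium channel partner, did not pass without the EOM fibre array of rat 25, the EOM junction array of rat 15, 25 or 27, or the TA junction array of rat 15 (adjusted p = 0.0501 to 0.0583). Slc24a2 did not pass without the EOM junction array of rat 27 (adjusted p = 0.0557). Fst (adjusted p = 0.0326) did not pass without any 1 of 10 arrays (adjusted p = 0.0534 to 0.0877), all but the EOM fibre arrays of rats 15, 25 and 29, the EOM junction array of rat 29 and the TA junction arrays of rats 25 and 27. The interaction was negative for Nptx1 (-6.50), Calml4 (-5.34), Cacna2d3 (-4.78), Car3 (-4.72), Gmfg (-4.69), Map3k7cl (-4.49), Klkb1 (-4.35), Myom2 (-3.42) and Plvap (-3.10). It was also negative for Chrna1 (-2.89), Etv4 (-2.88), Rab15 (-2.80), Fez2 (-2.63), Car2 (-2.23), Ampd3 (-2.07), Lrp4 (-1.75), Camk2d (-1.66), Gpd1 (-1.53) and Mybpc2 (-1.45). Without single arrays, Gpd1 did not pass for the EOM junction array of rat 25 and the TA junction arrays of rats 15 and 29 (adjusted p = 0.0502 to 0.0521), and Lrp4 for the 3 arrays named above. Mybpc2 was lost without any of 11 arrays (adjusted p up to 0.0783), all but the EOM fibre arrays of rats 15 and 29, the TA fibre array of rat 27, the EOM junction array of rat 29 and the TA junction array of rat 27. Camk2d was lost without any of 12 (adjusted p = 0.0560 to 0.0831), all but the EOM fibre arrays of rats 15 and 25, the TA fibre array of rat 25 and the TA junction array of rat 29. Car2 was also lost without any of 12 (adjusted p = 0.0576 to 0.0993), all but the fibre arrays of rat 15 and the junction arrays of rat 25. Rab15 was lost without any of 14 (adjusted p = 0.0505 to 0.106), all but the TA fibre and junction arrays of rat 25. Arrays centred on a common median also ended the calls of Rab15 (adjusted p = 0.0544), Car2 (0.0583), Camk2d (0.193), Mybpc2 (0.450) and Gpd1 (0.520). A pseudocount of 1 ended those of Mybpc2 (0.0534), Camk2d (0.0731), Fst (0.108), Car2 (0.115), Kcnip3 (0.176) and Rab15 (0.176), and the mean of a gene's probe sets those of Camk2d (0.161), Rab15 (0.603) and Gpd1 (0.658).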

How the results depend on the processing

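With arrays centred on a common median 968 genes were called at junctions, 524 higher and 444 lower, and 60 interactions. With a minimum difference of 1 on the log2 scale 136 were called, 57 higher and 79 lower. The interaction was called for 46 genes with a pseudocount of 1, 218 with a pseudocount of 64 and 205 with a trended and robust prior, and the cause was not tested. Leaving out 1 array or all arrays of 1 rat gave 903 to 1932 genes at junctions, 426 to 930 higher and 474 to 1002 lower, and 25 to 99 interactions. Leaving out a whole rat gave 903 genes without rat 29 (429 higher, 474 lower, 32 interactions), 954 without rat 27 (426, 528 and 25), 1085 without rat 25 (514, 571 and 33) and 1178 without rat 15 (562, 616 and 33), in fits with 4 arrays fewer. Single arrays gave 1136 genes (536 higher and 600 lower) without the EOM junction array of rat 25 and 56 interactions without that of rat 27.

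The other settings, run for all 4 counts where they apply, kept each within 1.5 times. For the pairing by rat, the fit with no replicate block called 1474 genes at junctions, 673 higher and 801 lower, and 73 interactions. With the rat as a random block the counts were 1685, 786, 899 and 103. Of the genes named in the text, Cd55 (adjusted p = 0.0516), Six4 (0.0519), Ampd3 (0.0591), Slc2a4 (0.0742) and Slc4a4 (0.0904) at junctions, and the interactions of Fst (adjusted p = 0.122), Rab15 (0.0641), Lrp4 (0.0959) and Mybpc2 (0.0520), did not pass without the block. The count of calls also moved without the block for the lists of the cleft (0 of 25), oxidative phosphorylation (5), secreted factors (13), head muscle factors (1) and neuron markers (1). Centring on the median of the genes tested, an alternative chosen after seeing the data, gave 1793 genes, 724 higher and 1069 lower. Of 136 named genes past the threshold, 104 remained past it whichever single array was left out, and 97 under all alternatives but the 2-fold minimum and the leaving out of arrays or rats. Over the named genes at junctions and all alternatives, 4894 values kept the side of the threshold (26 of them with the sign turned and the threshold not passed either way), 557 lost the call and 33 newly passed. Levels near 4, such as those of Klkb1 in EOM and Myh13 in TA, are at the floor of the scale, so the differences of these genes are understated.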
